A study of Mus musculus with 1824 samples.

Results

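The cells described here are 75 single cells of E7.5 and E8.5 mouse embryos in which *Foxa2* was read together with another endoderm or axial gene, and in which genes of the visceral endoderm were not read together. A cell was taken if it had at least 100000 reads, *Foxa2* of at least 20 CPM (a read count scaled to a common total of reads per cell), at least 1 of *Sox17*, *Trh*, *Foxa1* and *Cer1* at 20 CPM or more, and fewer than 3 of *Ttr*, *Apoa1*, *Apob*, *Afp*, *Amn* and *Cubn* at 50 CPM or more. Of 1824 wells, 1649 had at least 100000 reads, and 120 of these had *Foxa2* at the minimum. Among the 120, 28 cells read 3 or more of the visceral endoderm genes and 17 further cells lacked a second gene, which left 75 cells, or 4.55% of the 1649 (exact 95% binomial interval 3.59 to 5.67%). They are called the *Foxa2*-selected cells below, and the 1574 cells that did not meet the rule are called the other cells. CPM values were not divided by transcript length, so levels are compared between cells and not between genes.

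The plates came from chimaeric embryos, made by injecting *Tet* triple-knockout embryonic stem cells that carry an H2B-tdTomato label into wild-type C57BL/6J blastocysts, and the labels give the strain as CD1. Cells were sorted into 96-well plates and their messenger RNA was read with Smart-seq2, on 11 plates of E7.5 and 8 plates of E8.5. The labels do not say which wells held knockout and which held host cells, nor the gate of each well, so every group below mixes both genotypes in unknown shares, and the selection of cells by the sorter can set the share of any cell type. Of the E7.5 plates, 4 are titled with an embryo number (1, 2, 4 and 5), 1 is titled as a chimera plate with the number 3, and 6 carry a plate number only and are called lane plates. The methods of the study state that chimaeric embryos were pooled before sorting, so an embryo number may not stand for a single animal.

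*Foxa2* encodes a forkhead transcription factor that can open closed chromatin and is needed for the node, the notochord and the foregut. Definitive endoderm and axial mesendoderm both arise from epiblast cells that pass through the anterior end of the primitive streak under high Nodal signalling. *Sox17* then marks the endoderm, *Noto*, *T* and *Chrd* mark the node and notochord, and *Cer1* encodes a secreted inhibitor of Nodal, BMP and Wnt ligands. The older visceral endoderm uses *Foxa2*, *Sox17* and *Cer1* too, and is told apart by its secreted plasma proteins and its uptake receptors.

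At E7.5, 67 cells met the rule, or 7.01% of the cells of that stage (exact 95% interval 5.47 to 8.82%), and at E8.5 8 did, or 1.15% (0.4997 to 2.26%). The cells made up 13.04% of embryo 1, 12.8% of embryo 2, 12.3% of lane plate 5, 9.64% of lane plate 4, 9.57% of chimera plate 3, 7.95% of embryo 5 and 7.23% of lane plate 6. Embryo 4 held 3 such cells, and lane plates 1 and 3 held 1 each. Lane plate 2 held 0 of 89 cells, with an exact 95% interval up to 4.06%. E8.5 plates 1 to 6 held 0 of 77 to 92 cells each, with intervals up to 3.93 to 4.68%. The 8 cells of E8.5 were on plates 7 and 8, with 4 of 88 cells each. The intervals, which cover counting error only, overlapped among the 7 E7.5 plates with at least 5 of the cells.

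**Figure D1:**
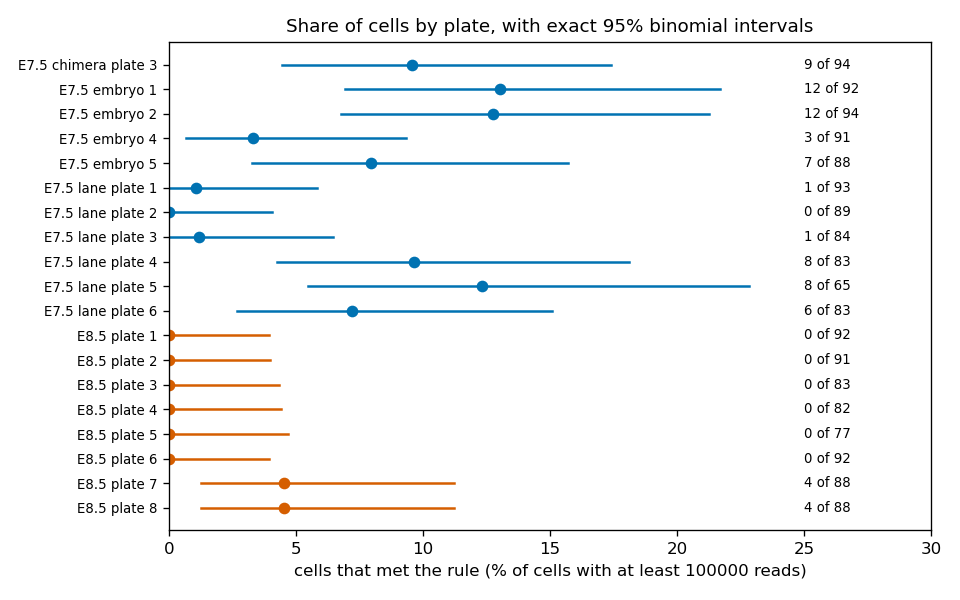
Share of the *Foxa2*-selected cells on each plate, in percent of the cells with at least 100000 reads; points are shares, lines are exact 95% binomial intervals, blue is E7.5 and orange is E8.5. Embryo 1 (13.04%) and embryo 2 (12.8%) hold the highest shares, and 6 of the 8 E8.5 plates hold none of the cells.

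The *Foxa2*-selected cells had a median of 687096 reads (162900 to 1849447), against 668862 in the other cells. Thinned to 100000 reads, they held a median of 7116 genes, against 6746 in the other cells. Mitochondrial genes took a median of 2.09% of their reads (1.63% in the other cells) and ribosomal protein genes took 7.72% (7.47%). No 2 wells held the same counts.

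The values that chose the cells are given as a description, since the rule fixed them. *Foxa2* ranged from 21.3 to 582.2 CPM with a median of 100.1 CPM, and it was 20 CPM or more in 2.86% of the other cells. Just inside its limit stood cells with 21.3, 21.8 and 26.4 CPM, and just outside stood cells with 17.8, 17.4 and 16.5 CPM. The highest second gene was 21.5, 24.5 and 25.6 CPM in the cells just inside and 17.2, 17.1 and 15.6 CPM in those just outside. *Trh*, which encodes the precursor of thyrotropin-releasing hormone, was 20 CPM or more in 54 of the 75 cells, *Foxa1* in 45, *Sox17* in 42 and *Cer1* in 38. All 4 second genes were read in 25 cells, 3 in 10, 2 in 9 and only 1 in 31. Where only 1 was read, it was *Trh* in 14 cells, *Foxa1* in 12, *Sox17* in 5 and *Cer1* in 0.

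*Cer1* was read with *Sox17* in 34 cells and without it in 4, and 32 cells read *Sox17*, *Cer1* and *Trh* together. A visceral endoderm gene reached 50 CPM in 9 of the 75 cells, 6 with 1 such gene and 3 with 2. In the 53 cells with 3 or more of these genes that served as visceral endoderm cells, pooled *Ttr* was 6266 CPM and pooled *Apob* 3641 CPM, against 60.4 and 7.64 CPM in the *Foxa2*-selected cells.

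The label of definitive endoderm and axial mesendoderm was then looked at in each cell. The 75 cells were put in 6 groups by *Sox17*, a gene of the rule, and by 4 genes outside it. The limits were set after the values were seen, so the groups are described and not tested. *Sox17* of at least 20 CPM with *Nid1* under 1000 CPM took 39 cells. *Nid1* of 1000 CPM or more took 3, *Noto* of at least 20 CPM without *Sox17* took 4, and *Pou5f1* of at least 500 CPM without *Sox17* took 18. The last 11 cells were split by *Epcam*, with 5 at 20 CPM or more and 6 under it.

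**Figure D2:**
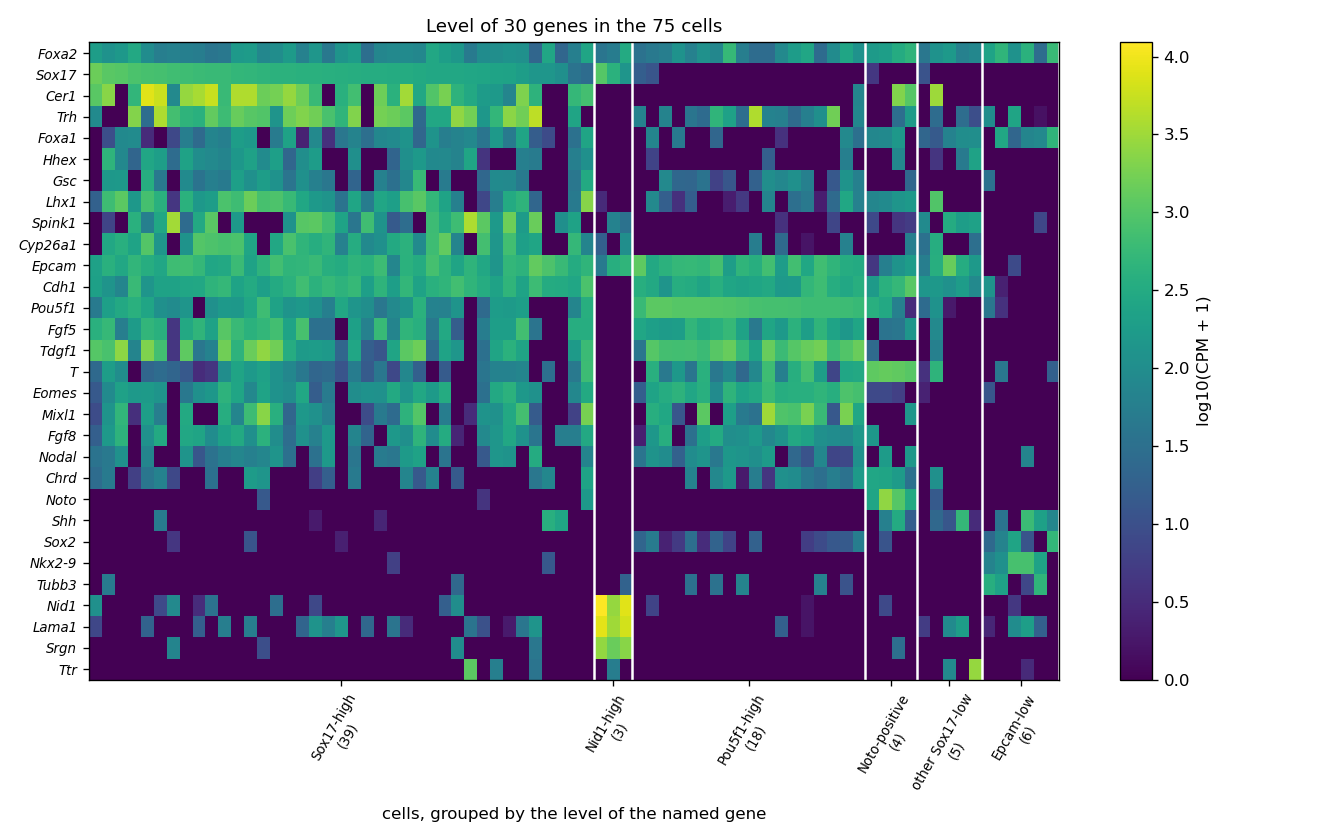
Level of 30 genes (rows, log10 of CPM + 1) in each of the 75 cells (columns), ordered by group with the number of cells in brackets. The 39 *Sox17*-high cells share *Cer1*, *Trh*, *Lhx1* and *Cyp26a1*, the 18 *Pou5f1*-high cells share *Tdgf1*, *Eomes* and *Epcam*, and the 3 *Nid1*-high cells stand apart by *Nid1*, *Lama1* and *Srgn*.

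The 39 *Sox17*-high cells came from 10 plates, 37 of them from E7.5. *Cer1* was 20 CPM or more in 34 of the 39, with a median of 700.8 CPM and a highest value of 8109 CPM. *Lhx1*, a LIM homeobox factor of the anterior mesendoderm and node, was read at 20 CPM or more in 33, *Cyp26a1*, which breaks down retinoic acid, in 33, and *Hhex*, a homeobox factor of the anterior endoderm, in 28. *Gsc*, the homeobox factor of the organiser, was read in 27 and *Spink1*, a trypsin inhibitor made by endoderm, in 28. Other endoderm genes were at that level in fewer of the 39 cells, with *Cxcr4* in 12, *Cpm* in 11, *Sox21* in 3, *Hnf4a* in 2 and *Pyy* in 0. All 39 cells read the epithelial genes *Epcam*, *Cdh1*, *Cldn6* and *Krt8* at 20 CPM or more. Other epithelial genes varied, with *Krt18* at that level in 38, *Cldn7* in 36, *Prss8* in 23, *Ocln* in 11, *Krt7* in 8 and *Cldn3* in 1.

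Some genes of the epiblast and the streak were present in most of the *Sox17*-high cells. Of 14 primed pluripotency genes 7 were at 20 CPM or more in over 50% of these cells, and of 15 primitive streak genes 6 were. In the *Pou5f1*-high cells these counts were 11 and 6. The share of all genes past this mark is not given here, so the counts are a description only. *Pou5f1*, the pluripotency factor that is lost as germ layers form, had a median of 129.1 CPM and was 20 CPM or more in 34 of the 39. Its pooled level was 152.3 CPM, against 730.1 CPM in epiblast cells (7.34% of the 1649, with *Pou5f1* of at least 100 CPM and neither *Foxa2* nor *T*) and 1.92 CPM in the visceral endoderm cells. The T-box factors *T* and *Eomes* were read in 25 and 31 of the cells. *Mesp1*, the factor of nascent mesoderm, was read at 20 CPM or more in 1 of the 39 cells, at 523.3 CPM.

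Against the visceral endoderm cells, the *Sox17*-high cells shared *Cldn6* (1315 against 1884 CPM), *Emb* (4444 against 5068 CPM) and *Slc16a1* (1985 against 2265 CPM), and differed in *Dnmt3b* (1114 against 299.7 CPM), *Tdgf1* (594.04 against 12.9 CPM) and *Spink1* (464.5 against 2530.2 CPM). These are pooled values. The visceral endoderm cells were on few of the same plates, so no test was made. Of these cells 26 were from E7.5 and 27 from E8.5, while 37 of the 39 *Sox17*-high cells were from E7.5. Stage and cell type are therefore mixed in these values and in those of *Pou5f1* above.

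The 18 *Pou5f1*-high cells were all from E7.5, on 7 plates, with 5 on chimera plate 3, 4 in embryo 1 and 3 in embryo 2. Each had *Pou5f1* between 572.9 and 1168 CPM, *Fgf5*, a ligand of the primed epiblast, between 44.3 and 546.4 CPM, and *Dnmt3b*, the methyltransferase that is high in epiblast, between 1096 and 3654 CPM. *T* was 20 CPM or more in 16 of the 18, *Eomes* in 17, *Nodal* in 13 and *Mixl1*, a homeobox factor of the streak, in 13. *Trh* was the second gene in most of them, at 20 CPM or more in 15, while *Cer1* was read at that level in 1 and *Spink1* in 0.

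Their pooled levels stood between those of the epiblast cells and of streak cells (17.5% of the 1649, with *T*, with *Mixl1*, *Eomes* or *Mesp1*, and without *Foxa2*) for some genes and outside both for others. The genes that define the compared cells (*Pou5f1*, *T*, *Mixl1*, *Eomes* and *Mesp1*) are left out here. *Chrd*, which encodes a BMP inhibitor of the organiser, was 54.9 CPM, against 3.19 CPM in the epiblast cells and 5.18 CPM in the streak cells. *Nodal* was 77.8 CPM, against 37.3 and 16.9 CPM, and *Otx2*, a homeobox factor of epiblast and anterior cells, 189.4 CPM, against 240.7 and 55.4 CPM. Within the 18 cells *Mesp1* was 20 CPM or more in 0.

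**Figure D3:**
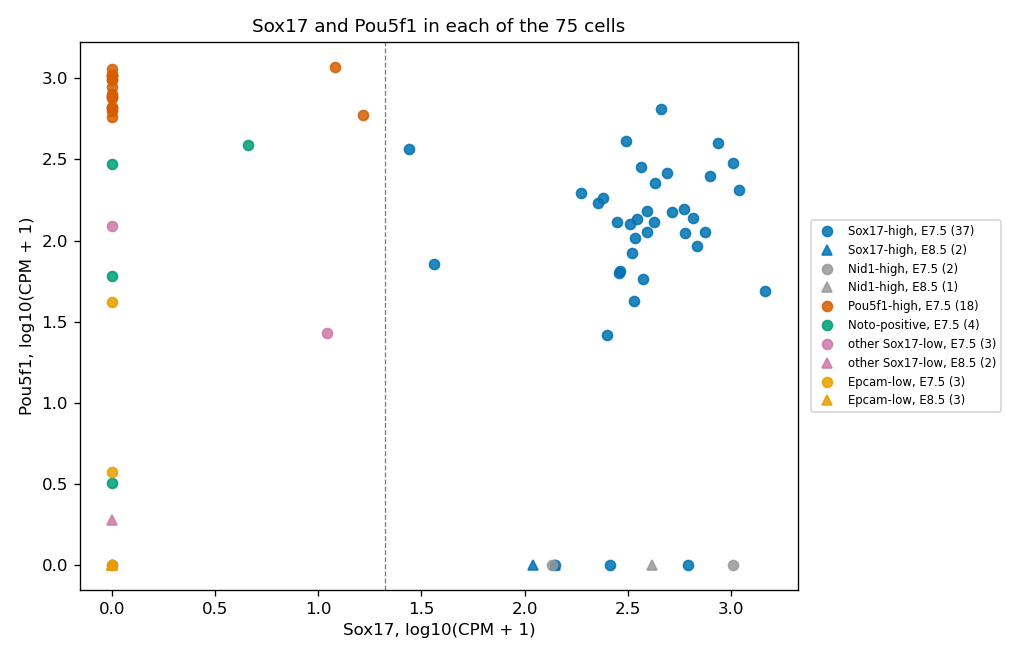
*Sox17* (horizontal) against *Pou5f1* (vertical), both as log10 of CPM + 1, in each of the 75 cells; colours are the 6 groups, circles are E7.5, triangles are E8.5 and the dashed line is 20 CPM of *Sox17*. The 18 *Pou5f1*-high cells lie at *Sox17* of 15.4 CPM or less, most at 0, and 1 *Sox17*-high cell, at 648.3 CPM of *Pou5f1*, lies at their level, while the remainder lie under 500 CPM.

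The 4 *Noto*-positive cells, 3 on lane plate 5 and 1 on lane plate 6, read the genes of the node. *Noto*, the homeobox factor of the node and notochord, was 253.35, 304.7, 2617 and 1044.6 CPM in these cells, and *T* lay between 1069 and 1319 CPM. *Foxj1*, the factor that drives motile cilia, was 20 CPM or more in 3 of the 4 and *Rfx3*, another ciliary factor, in 4. *Chrd* was read in all 4, at 33.1 to 264.1 CPM, and *Shh*, the ligand made by the notochord, in 2. *Cer1* was 0 in 2 of them and 1037.8 and 2035 CPM in the other two. Another cell with *Noto*, at 155.4 CPM, was in embryo 4 and read *Sox17* as well. Among the other cells 0.254% read *Noto* at 20 CPM or more.

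The 3 *Nid1*-high cells, 2 in embryo 5 and 1 on E8.5 plate 7, passed the rule by *Sox17* alone, at 134.3, 1021.4 and 415.3 CPM. They carried very high levels of basement membrane genes. *Nid1*, which encodes nidogen, lay between 2753 and 12325 CPM, the laminin chains *Lama1* and *Lamb1* between 3206 and 11208 CPM, and the collagen *Col4a1* between 5304 and 26361 CPM. *Srgn*, a granule proteoglycan, and *Sox7*, a relative of *Sox17*, were also high, at 1440.4 to 2718 CPM and 167.7 to 1005.01 CPM. *Cer1*, *Trh*, *Foxa1*, *Hhex*, *Cdh1* and *Pou5f1* were 0 in all 3, so these cells do not carry the markers of the label other than *Foxa2* and *Sox17*.

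The 6 *Epcam*-low cells, 3 of each stage, also went against the label. *Sox17*, *Cer1* and *Hhex* were 0 in all 6 and *Foxa2* reached 582.2 CPM. *Nkx2-9*, a homeobox factor of the ventral neural tube, was 20 CPM or more in 5 of them, *Rfx4*, a neural factor, in 4, *Sox2* in 4 and *Shh* in 4, and *Foxa1* was 20 CPM or more in 5. Of the 18 genes of the neural and surface ectoderm list, only *Sox2* was at that level in over 50% of the 6 cells, and 10 were at it in 0. *Ptch1*, the Hedgehog receptor that is itself a target of the pathway, was 100.5 to 2401 CPM, and *Tubb3*, a tubulin of neurons, was read in 3. *Foxa2* and *Shh* are also the known genes of the ventral midline of the neural tube.

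The last 5 cells read *Epcam* with little or no *Sox17*. *Krt8* lay between 1129.7 and 2914 CPM and *Cldn6* between 28.7 and 3268 CPM. These 5 were unlike each other. 1 cell of lane plate 5 had *Cer1* at 3089 CPM, *Lhx1* at 965.9 CPM and *T* at 459.8 CPM. 1 cell of E8.5 plate 8 had *Nepn*, a proteoglycan gene of the foregut, at 15947 CPM, and 1 cell of E8.5 plate 7 had *Ttr* at 2821 CPM with *Afp* at 358.6 CPM.

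RNA of blood cells was looked for with *Hba-x*, the embryonic alpha-like globin. It was 20 CPM or more in 9 of the 75 cells, on 2 plates, with a highest value of 96.3 CPM, and its part in the results was not tested. The summed level of 18 blood and endothelial genes was 0 to 282.2 CPM in the *Foxa2*-selected cells, with a median of 25.8 CPM. In the other cells the median was 509.4 CPM.

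The reads of the 75 cells were then pooled and compared with the pooled reads of the other cells, as log2 ratios with 5 CPM added to each level. A gene counted as higher or lower if it was past 2-fold and had the same direction on each of the 7 E7.5 plates with at least 5 of the cells (chimera plate 3, embryos 1, 2 and 5 and lane plates 4 to 6). The 9886 genes that reached 10 CPM in 1 of the pools were tested in this way, and 1.16% of them were higher and 1.25% lower. This is a description without a test, because the cells were chosen in the same libraries and the other cells are a mixture of many types whose makeup differs between plates. The pools also differ in stage. Of the 75 cells 67 were from E7.5, while the other cells came from 11 plates of E7.5 and 8 of E8.5. The pooled ratios and levels therefore mix stage with cell type.

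Among genes with 1 direction on the 7 plates and at least 50 CPM in either pool, and after the genes of the rule, the largest ratios belonged to *Samd3* (log2 ratio 3.24), *Dgkk*, a diacylglycerol kinase (3.02), *Fgf5* (2.91), *Gsc* (2.44), *Elf3*, an epithelial transcription factor (2.41), and *Apela*, the peptide ligand of the apelin receptor (2.37). They were followed by *Nodal* (2.35), *Arhgef26* (2.31), *Cldn6*, a claudin of early embryonic epithelia (2.27), *Cfc1*, a co-receptor of Nodal (2.23), and the kinesin *Kif21a* (2.23). *Emb* (embigin, 2.18), *Slc16a1* (a lactate and pyruvate transporter, 2.14) and *Crb3* (an apical polarity protein, 2.13) came next. The rule genes themselves stood at 5.74 for *Cer1*, 4.92 for *Trh*, 4.17 for *Foxa2*, 3.19 for *Foxa1* and 2.91 for *Sox17*.

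*Gsc* shows how far plates differed. Its pooled level was 150.4 CPM in the *Foxa2*-selected cells of chimera plate 3, 83.6 CPM in embryo 2, 43.4 CPM on lane plate 6, 42.8 CPM in embryo 1, 25.2 CPM on lane plate 5, 22.1 CPM on lane plate 4 and 11.5 CPM in embryo 5. The other cells of these plates stood at 41.3, 18.7, 15.0, 12.2, 9.52, 3.74 and 9.30 CPM in that order. Every plate was higher in the *Foxa2*-selected cells, and embryo 5 by the least.

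The 10 smallest ratios included genes of blood, vessel and smooth muscle. *Kdr*, a receptor for vascular endothelial growth factor, was 1.58 CPM in the *Foxa2*-selected cells and 334.8 CPM in the other cells (log2 ratio -5.69). *Cd34*, *Tek* and *Pecam1*, of endothelium, stood at 2.39, 0.108 and 0.108 CPM against 118.1, 72.8 and 57.5 CPM. *Tal1*, *Gfi1b* and *Nfe2*, of blood, stood at 0.467, 0 and 0.0538 CPM against 73.5, 62.1 and 54.1 CPM, and *Acta2*, smooth muscle actin, at 0.0718 against 73.6 CPM. *Pmp22* and *Inka1* made up the 10. KDR and CD41 were surface proteins used by the study for sorting, and the part of the gates in these ratios was not tested.

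Genes that the cells might share were read from 20 lists, with the 11 genes of the rule left out of each. The median log2 ratio over all 9886 genes was 0.01. A gene under 10 CPM in the other cells was measured only where the *Foxa2*-selected pool reached 10 CPM, which fixes a positive ratio. The reverse holds for negative ratios, so the list medians describe the measured genes and are no evidence of a direction. The definitive endoderm list had 12 measured genes with a median of 1.68, of which 4 were higher, *Gsc*, *Gata6* and *Kitl* among them, and 0 lower. The node and notochord list had 15 with a median of 2.23, of which 5 were higher (*Chrd*, *Nodal*, *Pkd1l1*, *Cfc1* and *Gsc*). *Lhx1* at 2.03, *Shh* at 2.47 and *Noto* at 2.79 were past 2-fold in the pool and did not keep 1 direction on all 7 plates.

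Epithelial genes were higher by the same rule in 6 of 20, namely *Cdh1*, *Epcam*, *Cldn6*, *Krt8*, *Crb3* and the laminin chain *Lamb1*, with a median of 1.55. Mesenchymal genes had a median of -1.44, and 4 of 13 were lower, *Cdh11*, *Fn1*, *Zeb2* and *Acta2*. *Cdh2*, the N-cadherin gene, was not among the lower genes, at 149.3 CPM against 93.7 CPM, and it was 20 CPM or more in 77.3% of the *Foxa2*-selected cells.

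The Nodal pathway list held ligand, co-receptors, inhibitors and targets, and its median over 18 genes was 0.47. The ligand *Nodal* was 60.9 CPM in the *Foxa2*-selected cells (95% Poisson interval 58.8 to 62.96 CPM, for counting error only) and 7.90 CPM in the other cells (7.75 to 8.05 CPM), and the co-receptor *Cfc1* was 68.8 against 10.7 CPM. The co-receptor *Tdgf1* was 562.9 against 171.3 CPM, and its plates ranged from -0.61 to 2.65 in log2 ratio. The inhibitors *Lefty1* and *Lefty2* stood at 26.7 against 0.758 CPM and at 22.2 against 21.3 CPM, and neither kept its direction over the plates. The secreted inhibitors of the anterior midline had a median of 1.89, with *Chrd* higher and *Dkk1*, a Wnt inhibitor, at 92.2 against 21.3 CPM with plates from -1.45 to 4.22.

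For the streak, in the pool, *Fgf8* was higher and *Mesp1* and *Cdx1* were lower, of 12 genes with a median of 0.69. Of 10 mesoderm genes 5 were lower (*Mesp1*, *Hand1*, *Foxf1*, *Tbx20* and *Bmp4*), with a median of -1.29. The primed pluripotency list had a median of 1.33 over 12 genes, with *Fgf5* higher. *Nanog* was 61.4 against 12.03 CPM and *Pou5f1* 298.2 against 117.6 CPM, with plate ratios of both signs. Visceral endoderm genes outside the rule had a median of -1.33 over 13 genes with 0 called in either direction, and their summed level had a median of 647.9 CPM in the *Foxa2*-selected cells and 559.6 CPM in the other cells.

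Of 18 blood and endothelium genes 6 were lower (*Pecam1*, *Kdr*, *Etv2*, *Tal1*, *Lyl1* and *Tek*), with a median of -3.73. These medians set pools of both stages against each other. Several differ in sign from the medians of edgeR's estimates within the 7 E7.5 plates, where the median of all genes was -0.16. Estimates of genes at 0 depend there on the prior count. The genes measured also differ, so the 2 sets of medians are not like for like. Neural and surface ectoderm held 11 genes within plates and 4 in the pool, mesoderm 16 and 10, and blood and endothelium 9 and 18. Within plates the streak list stood at -0.86, neural and surface ectoderm at -1.26 and gut tube at -0.31. Hedgehog stood at -0.39, forkhead at -0.12 and Sox at -0.59. Primed pluripotency stood at 0.087, mesoderm at -4.61, blood and endothelium at -1.71 and node and notochord at 1.53. The remaining lists of the pooled comparison held few calls. Node cilia genes had 2 of 8 higher (*Rfx3* and *Pkd1l1*), and gut tube genes had 2 of 10 higher, *Gata6* among them, and 1 lower (*Cdx2*). *Zic2* was higher among 4 measured neural and surface ectoderm genes, and in the extraembryonic ectoderm list 1 of 9 was higher (*Sorl1*) and 3 were lower, *Cdx2* and *Bmp4* among them. The forkhead list outside *Foxa2* and *Foxa1* had 1 of 9 lower (*Foxf1*), while the Sox list had 0 of 6 called and the Hedgehog list 0 of 8. Of 25 cell cycle genes only *Ccnd3*, a D-type cyclin, was called, as lower.

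The genes of DNA methylation matter to these embryos because the injected cells lack TET enzymes, and 0 of 8 were past the rule in the *Foxa2*-selected cells. *Dnmt1* was 164.9 CPM against 168.1 CPM, *Uhrf1* 396.5 against 349.7 CPM, *Dnmt3a* 130.2 against 128.3 CPM and *Dnmt3b* 1249 against 486.4 CPM. *Tet1* was 76.3 against 63.3 CPM, *Tet2* 14.4 against 25.5 CPM and *Tet3* 43.6 against 40.3 CPM. A knockout that removes part of a gene can leave its transcript, so these levels do not tell which cells were knockout.

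**Figure D4:**
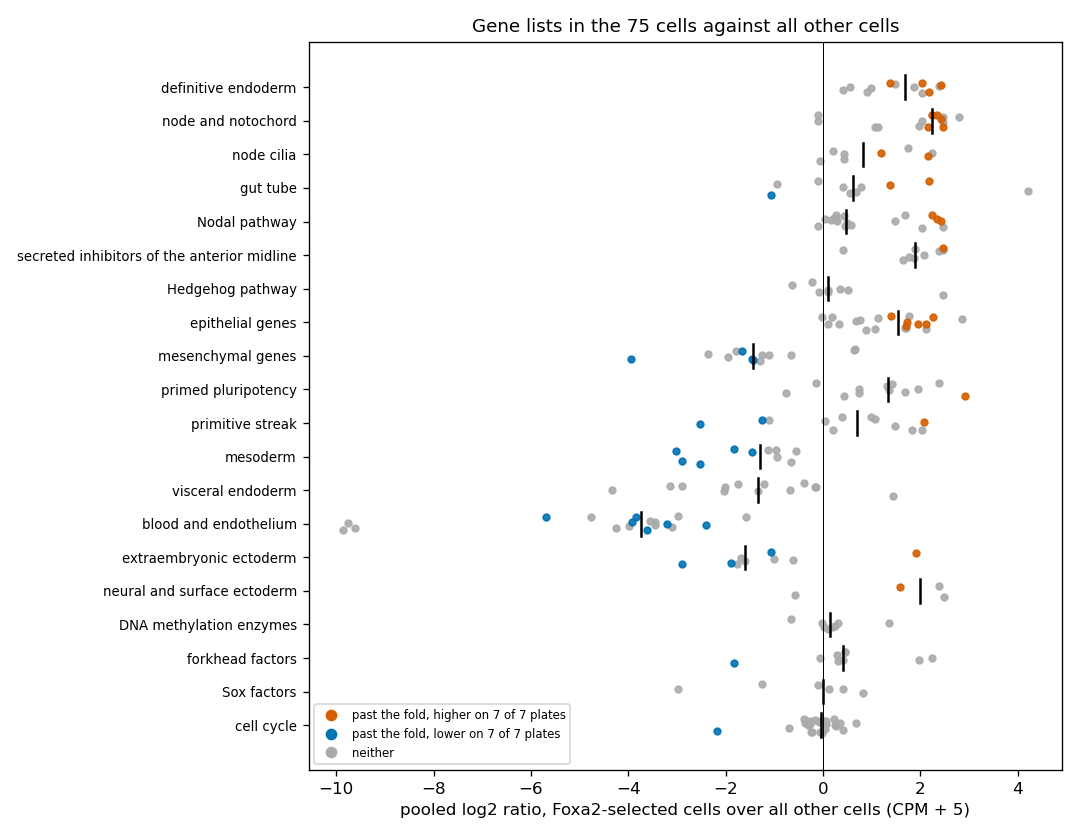
Pooled log2 ratio (CPM + 5) of the *Foxa2*-selected cells over all other cells for each measured gene of 20 lists, with the rule genes left out; orange and blue points are past 2-fold with 1 direction on all 7 plates, grey points are not, and black bars are list medians. In this pooled comparison the node and notochord list has the highest median (2.23) and the blood and endothelium list the lowest (-3.73). Genes under 10 CPM in 1 pool are measured only through the other pool, which fixes their sign. Within plates, over partly other genes, mesoderm is lowest (-4.61).

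Tests set the summed *Foxa2*-selected cells of an embryo against its summed other cells, with the embryo as a block in edgeR's quasi-likelihood test. A gene was called at an adjusted p (Benjamini-Hochberg over all genes fitted) under 1% and a change of at least 2-fold. Genes of the rule were in the fit and in this adjustment, and were left out of the counts and calls afterwards. Their part in calls close to the 1% limit was not tested. Embryos 1, 2 and 5 had at least 5 of the cells. Of 16301 genes 0 were called (0%), 1408 had an unadjusted p under 0.05, and DESeq2 on the same sums called 1.07% of them as higher and 0.779% as lower. In simulated sums of this size edgeR called 2 of 100 genes that differed by 3 on the log2 scale, so this comparison could miss changes of that size. The lowest adjusted p was shared by *Mesp1*, *Flrt3* and *Kit*. *Mesp1* was at 0.757, 2.30 and 0.509 CPM in the *Foxa2*-selected cells of embryos 1, 2 and 5 and 157.4, 187.2 and 57.2 CPM in the other cells (log2 change -6.83, SE 0.36, edgeR adjusted p = 0.042).

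The same test over the 7 E7.5 plates, with the plate as the block, called 24 genes as higher (0.174%) and 13 as lower (0.0942%) of 13807, and 1888 genes had an unadjusted p under 0.05. The spread between plates may be technical, and several plates may hold cells of the same embryos, so these p-values speak of plates. The count rests on single plates. Leaving out chimera plate 3, embryo 1, embryo 2, or lane plate 4, 5 or 6 gave 14, 4, 2, 7, 2 and 3 higher genes, of which 12, 4, 2, 7, 2 and 3 were among the 24. Leaving out embryo 1, embryo 2, or lane plate 4, 5 or 6 gave 8, 3, 6, 5 and 8 lower genes, of which 6, 3, 5, 5 and 6 were among the 13. None of the 37 genes was called in the opposite direction in these fits. DESeq2 within the 3 embryos called 23 of the 24 and all 13 as well. Its sums are those of 3 of the 7 plates, so this overlap is no separate support, and edgeR on the same 3 embryos called 0.

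Of the 24, *Slc16a1*, which moves lactate and pyruvate across the plasma membrane, was 551.1 to 2152 CPM on the 7 plates (median 1433) in the *Foxa2*-selected cells and 161.5 to 656.7 CPM in the other cells (log2 change 2.20, SE 0.20, edgeR adjusted p = 0.0011). *Emb*, whose product is a partner of such transporters, was 2152 to 6038 CPM against 630.9 to 1387 CPM (1.64, SE 0.19, edgeR adjusted p = 0.0035). The groups did not overlap for *Emb*. For *Slc16a1*, the highest plate of the other cells, embryo 5, exceeded the lowest of the *Foxa2*-selected cells, chimera plate 3, while each plate was higher on its own.

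*Kit*, a receptor tyrosine kinase, and *Kitl*, its ligand, were both called. *Kit* was 43.5 to 361.4 CPM against 8.04 to 69.1 CPM (log2 change 2.62, SE 0.30, edgeR adjusted p = 0.0035) and *Kitl* 42.7 to 428.2 CPM against 14.2 to 146.9 CPM (2.05, SE 0.23, edgeR adjusted p = 0.0034). The ranges of both genes overlapped between plates, with all 7 plates higher. Within the groups, *Kitl* was read at 20 CPM or more in 32 of the 39 *Sox17*-high cells and in 0 of the 18 *Pou5f1*-high cells.

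Among signalling genes, *Apela* was 30.4 to 117.2 CPM against 7.59 to 37.05 CPM (log2 change 2.20, SE 0.24, edgeR adjusted p = 0.0031), and *Cfc1* was 38.999 to 115.9 CPM against 14.2 to 28.1 CPM without overlap (1.96, SE 0.25, edgeR adjusted p = 0.0050). *Tgfbr3*, the co-receptor betaglycan, was 101.6 to 179.7 CPM against 32.2 to 50.1 CPM (1.66, SE 0.15, edgeR adjusted p = 0.0011). *Porcn*, the enzyme that adds lipid to Wnt ligands, was 35.3 to 113.5 CPM against 6.20 to 17.1 CPM, again without overlap. *Flrt3*, a membrane protein with leucine-rich repeats, and *Lpar1*, a receptor for lysophosphatidic acid, had log2 changes of 2.38 and 1.97. Of the epithelial list *Cldn6* was called, at 731.6 to 1082 CPM against 121.5 to 641.8 CPM (1.92, SE 0.24).

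The other 13 called as higher were *Dgkk*, *Samd3*, *Elmo1*, *Stk26*, *Arhgef26*, *Cd24a*, *Kif21a*, *Rabgap1l*, *Hdac6*, *Slc39a4*, *Fam213a*, *Lrpap1* and *Tspan7*, with log2 changes from 1.30 for *Cd24a* to 4.17 for *Samd3*. *Dgkk* was 78.9 to 248.5 CPM against 9.22 to 37.5 CPM (log2 change 3.14, SE 0.33, edgeR adjusted p = 0.0027), and *Samd3* was 16.6 to 122.7 CPM against 0.834 to 6.71 CPM. Neither overlapped between the groups. *Samd3* was read at 20 CPM or more in 46.7% of the *Foxa2*-selected cells, 1.65% of the epiblast cells and 5.21% of the streak cells.

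The 13 genes called as lower included secreted ligands and mesoderm factors. The ligands *Bmp4* and *Wnt5a* were 0.289 to 9.19 CPM against 30.8 to 91.6 CPM (log2 change -4.57, SE 0.41, edgeR adjusted p = 0.0011) and 9.19 to 30.2 CPM against 21.4 to 132.4 CPM (-2.50, SE 0.31, edgeR adjusted p = 0.0046). *Kdr* was 0.104 to 4.58 CPM against 32.9 to 219.6 CPM (-6.70, SE 0.61, edgeR adjusted p = 0.0011), and KDR was used for sorting. *Phlda2*, an imprinted gene of the placenta, was 11.8 to 190.4 CPM against 276.4 to 1465 CPM, *Meis2*, a homeobox factor, 6.11 to 17.9 CPM against 28.2 to 95.1 CPM, *Pdlim4* 2.15 to 7.32 CPM against 15.0 to 46.3 CPM and *Ccnd3* 48.3 to 112.1 CPM against 128.4 to 243.05 CPM. These ranges did not overlap, except for *Wnt5a*.

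The remaining 6 lower genes were at or near 0 in the *Foxa2*-selected cells, so their values are given without a fold. *Msgn1*, a factor of presomitic mesoderm, was 0 on 6 plates and 0.289 CPM on 1, against 1.16 to 59.4 CPM in the other cells. *Acta2* was at most 0.579 CPM against 2.08 to 181.1 CPM, *Wnt2* at most 1.04 CPM against 7.71 to 45.2 CPM and *Hand2os1*, a non-coding gene beside *Hand2*, at most 0.209 CPM against 3.51 to 19.6 CPM. *Tdo2* was at most 0.255 CPM against 1.53 to 22.4 CPM and *Pramef12* at most 1.02 CPM against 1.55 to 21.98 CPM. The call of *Tdo2* was close to the limit (edgeR adjusted p = 0.00999), in an adjustment that included genes of the rule. The libraries do not mark strand, so reads of *Hand2os1* cannot be told from those of a gene that overlaps it.

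**Figure D5:**
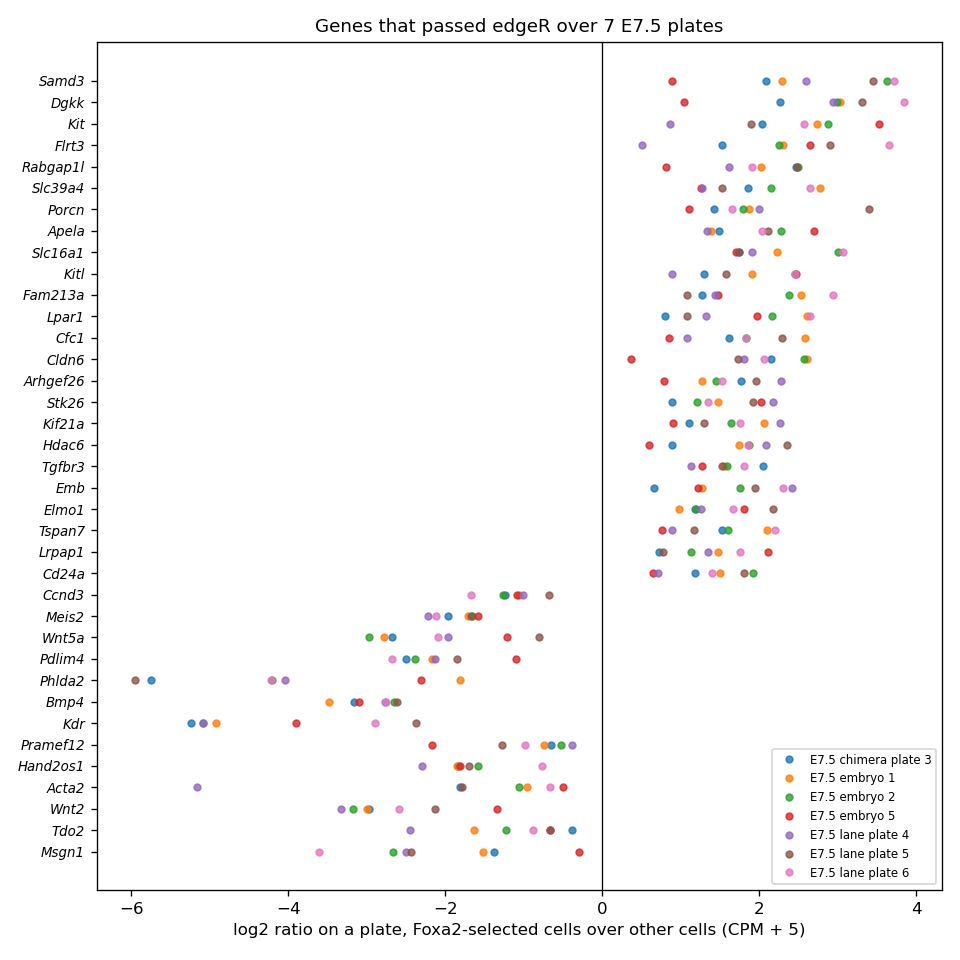
Log2 ratio (CPM + 5) of the *Foxa2*-selected cells over the other cells of the same plate for the 37 genes called over 7 E7.5 plates; each point is a plate. All 7 points lie above 0 for the 24 higher genes and below 0 for the 13 lower genes, and embryo 5 gives the smallest ratio for *Cldn6* (0.37).

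The nearest cells of the same embryo were the streak cells, which were used in a further comparison chosen after the data had been seen, and which share the *Foxa2*-selected cells with the test above. With 12, 12 and 7 *Foxa2*-selected cells and 51, 42 and 26 streak cells in embryos 1, 2 and 5, edgeR called 3 of 14256 genes as higher (0.021%) and 0 as lower, and 1408 had an unadjusted p under 0.05. Genes that define either set of cells were in the adjustment here too and were left out of the counts, and their part in the calls was not tested. *Car4*, a carbonic anhydrase, was 1188, 1220.5 and 1724 CPM in the *Foxa2*-selected cells and 179.8, 147.3 and 214.9 CPM in the streak cells (log2 change 2.94, SE 0.15, edgeR adjusted p = 0.0092). *Spink1* was 179.02, 359.9 and 398.4 CPM, against 1, 1 and 0 reads in all streak cells of each embryo, and *Pga5*, a pepsinogen, was 79.2, 15.4 and 143.4 CPM against 1, 0 and 0 reads. *Pga5* was 20 CPM or more in 12 of the 75 cells, 9 of the 39 *Sox17*-high cells and 0 of the 33 cells without *Sox17*. In the 2 *Nid1*-high cells of embryo 5 it was 258.4 and 664.9 CPM, and their part in the value of that embryo was not tested. All 3 genes were named after their values were seen. A like comparison with visceral endoderm or epiblast cells was not made, since only embryo 5, and only embryos 1 and 2, held enough of both.

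Against all other cells, *Spink1* was higher on 5 of the 7 plates. The exceptions were embryo 5, at 398.4 CPM in the *Foxa2*-selected cells against 546.2 CPM, and lane plate 5, at 456.9 against 764.1 CPM. Visceral endoderm cells, in which pooled *Spink1* was 2530.2 CPM, numbered 11 in embryo 5 and 1 on lane plate 5, and their part in these values was not tested.

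Over all 1649 cells, the 10 genes whose level followed *Foxa2* most closely included *9030622O22Rik* and *Foxa1* (Spearman's rho 0.54 each), *Spink1* and *Hkdc1* (0.44 each), *Cpn1* (0.43), *Cer1*, *Samd3* and *Pga5* (0.42 each) and *Trh* (0.40). These are descriptions over cells that share plates and depth, and many cells read none of these genes. *9030622O22Rik* is a non-coding gene on chromosome 2 (GRCm38, 147944740 to 148040203), on the same strand as *Foxa2* (148042877 to 148046969) and 2674 bases from it. It was 15.7 CPM in the *Foxa2*-selected cells and 0.655 CPM in the other cells, and 73.6 CPM in the E8.5 cells against 9.34 CPM at E7.5.

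Within the 75 cells, those with *Sox17* of at least 20 CPM (42) were set against those without (33), as a description, since *Sox17* is a gene of the rule. Of 9764 genes 4.66% were past 2-fold higher with *Sox17* and 7.05% lower, with no demand on plates. Besides *Sox17*, the largest ratios were those of *Nid1*, *Cyp26a1*, *Sema6d*, *Srgn*, *Cer1*, *Lama1*, *Pga5*, *Tinagl1* and *Prdm1*. *Sema6d*, a semaphorin, was 20 CPM or more in 35 of the 42 and 2 of the 33, *Cyp26a1* in 34 and 7, and *Prdm1*, a transcriptional repressor, in 23 and 1. *Nid1* was read in 8 of the 42. Without the 3 *Nid1*-high cells, the log2 ratio of *Nid1* went from 6.01 to 1.28, that of *Srgn* from 4.07 to 0.61, that of *Lama1* from 3.81 to 0.59 and that of *Tinagl1* from 3.72 to 0.99.

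The cells without *Sox17* led in *Nepn*, *Tubb3*, *Arg1*, *Nkx2-9*, *Ckb*, *Syt11*, *Cxcl12*, *Pim2*, *Apln* and *Noto*. *Cxcl12*, a chemokine, was read at 20 CPM or more in 19 of the 33 and 1 of the 42, *Apln*, a second ligand of the apelin receptor, in 20 and 3, and *Ckb*, a creatine kinase, in 20 and 5. *Nepn* was read in 2 of the 33, and with E7.5 cells only its ratio and that of *Arg1* were no longer lower, at 0.077 and 0.19. *Slc16a1* was 1932 CPM with *Sox17* and 333.9 CPM without, and *Emb* 4270.5 against 1817 CPM.

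The 8 cells of E8.5 were compared with the 67 of E7.5, with 4 cells on each of 2 plates and no test. Of 10104 genes 1774 were past 2-fold higher at E8.5 (17.6%) and 1841 lower (18.2%), with no demand on plates. The 8 cells were 3 *Epcam*-low, 2 *Sox17*-high, 1 *Nid1*-high and 2 other cells with *Epcam*, so the ratios mix stage with group. *Cer1*, *Tdgf1*, *Mixl1*, *Lhx1*, *Fgf5*, *Eomes* and *Gsc* were 0 in all 8 cells, against pooled levels of 1143, 624.7, 314.04, 292.9, 276.2, 205.3 and 73.3 CPM at E7.5. *Trh* was 1.63 CPM against 714.5 CPM, *Pou5f1* 0.181 against 330.9 CPM and *Zc3hav1* 0.726 against 155.96 CPM. In the other cells *Pou5f1* and *Lhx1* were lower at E8.5 too, at 2.53 CPM against 188.9 CPM and at 2.56 CPM against 97.3 CPM.

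*Shh* was 162.7 CPM at E8.5 and 10.8 CPM at E7.5, with 606.2, 206.5, 73.5, 380.1 and 250.7 CPM in 5 of the 8 cells. It was shared by 3 *Epcam*-low and 2 *Sox17*-high cells. The largest stage ratios belonged to *Nepn*, *Arg1*, *Ttr*, *Igfbp5*, *Spon1*, *Rfx4*, *S100g*, *Dlk1*, *Cdkn1c* and *Il1r1*, and several rested on 1 cell. *Nepn* was 15947 CPM in 1 cell and at most 2.48 CPM in the other 7, and *Ttr* was 2821 CPM in 1 cell and at most 84.5 CPM in the others. *Rfx4* was 62.2, 269.4 and 333.1 CPM in the *Epcam*-low cells and 0 in the other 5. Of the second genes of the rule, *Foxa1* was read at 20 CPM or more in 5 of the 8 cells and *Sox17* in 3, with none in common to all.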

How the data were processed

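Single-cell RNA was read with Smart-seq2 on a NextSeq 500. Methylation and accessibility data, which the study has for part of the cells, were not used here. Per the labels and the methods of the study, the authors aligned reads with HISAT2 2.1.0 to GRCm38 and made gene counts with featureCounts (version not given in the sources used here) and an Ensembl annotation. The deposited table holds whole-number counts per gene and cell, without normalisation, for 55487 genes and 1824 wells, with totals from 0 to 6162793 reads. Symbols matched 55141 of the gene IDs. Without molecular identifiers, intervals cover counting error only. Doublets were not called, and an alternative drops, per plate, the 2% of cells with the highest totals.

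The rule was applied to each cell's CPM. The labelled stage gave each cell its group. Pooled levels are summed reads as CPM, and log2 ratios add 5 CPM. Tests used summed counts, filterByExpr, TMM and edgeR 4.0.16 (glmQLFit, glmQLFTest) in R 4.3.3, with DESeq2 1.42.0 as an alternative. The Benjamini-Hochberg adjustment ran over all genes fitted, and the tests were tried on simulated data. Those of the 11 genes of the rule that passed the filter were part of the fits and of the adjustment. Their p-values are not reported, and they are left out of the counts of genes tested and called. The embryo, as the number in the title, or the plate was the block because both sums come from 1 plate.

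The cells, gene lists and tests were chosen with earlier results of these data known. Named genes were those of the 20 lists, the 20 largest and 10 smallest pooled ratios of genes past the rule with at least 50 CPM in either pool, the 10 largest and 10 smallest for stage and *Sox17*, and the 10 most like *Foxa2*; genes called by edgeR and those that lead single groups of cells were named after their values were seen. The list gene *Foxd4l1* was not matched, and a few genes that the rules would name are not reported here. Protein and promoter sequences were not used here.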

Additional observations from a re-analysis of the deposited data

Results flagged for a closer look

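Over 7 plates, the log2 ratio of *Cldn6* was lowest in embryo 5, at 0.37, far from the other plates. On lane plate 4 the ratios of *Acta2* (-5.16), *Tek* (-3.61) and *Nfe2* (-0.89) stood far below the others. These are 4 of 31 values checked, and chance alone marks about 1 in 20.

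For 4 genes reported here the ratio of the *Foxa2*-selected cells over the other cells had 1 sign on all 7 E7.5 plates and the opposite sign on both E8.5 plates, a difference that was not tested. *Trh* stood at -0.53 at E8.5 and 4.64 at E7.5, and *Dgkk* at 0.0845 and 2.96. In the E8.5 pool *Dgkk* was above 0 although each of the 2 plates was below. *Fgf5* stood at -0.15 and 2.46, and *Gsc* at -0.17 and 2.14. *Trh* and *Gsc* were at or near 0 in the 8 cells of E8.5, and *Trh* is a gene of the rule.

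Outside the cells described, among cells of 4000 to under 100000 reads, 1 met the remainder of the rule. It was on E8.5 plate 8, with 95820 reads, *Foxa2* at 260.9 CPM, *Trh* at 1001.9 CPM, *Foxa1* at 20.9 CPM, and *Sox17* and *Cer1* at 0.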

How the results depend on the processing

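Of the values that answer a comparison, 83.9% stayed within 1.5 times under the alternatives; of those of single genes, 95.6% stayed, 54 moved and 5 reversed. The number of cells that met the rule stayed within 1.5 times under every other limit tried. Adding 20 CPM in place of 5 gave 0.769% higher and 0.698% lower genes in the pooled comparison, and a minimum of 50 CPM gave 1.04% lower (49 of 4698). With the cells with *Sox17* of at least 20 CPM only, an alternative chosen after the data were seen, 2.54% were higher and 3.62% lower, with 3 in place of 7 plates that had to share a direction. TMM scaling of the pools gave 0.961% higher and 1.41% lower, and moved the median of all genes to -0.07; of its calls and of the main calls, 40.6% and 48.1% were higher.

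Within the 3 embryos, edgeR called 0% of genes in either direction, and 0.00845% higher and 0.0113% lower with no filter on low counts (3 and 4 genes). With 7 plates in place of embryos it called 0.174% and 0.0942%, and DESeq2 called 1.07% and 0.779%. Without the replicate block for the embryo it called 0 and 0. Leaving out an embryo gave 0 to 0.00565% in either direction, the upper value (1 gene each way) without embryo 5. Over 7 plates, leaving out each plate gave 2 to 30 higher and 3 to 14 lower genes, and leaving out the *Nid1*-high cells 32 and 15. The block pairs the cells of 1 plate by design.

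Reversed were the stage ratios of *S100g* (-0.21 without E8.5 plate 7, and up to 4.93 without another plate), *Nepn* (-0.26 without E8.5 plate 8, and up to 10.63 without another) and *Spon1* (-1.80 with *Epcam* of at least 20 CPM only), and with E7.5 cells only the *Sox17* ratios of *Nepn* (0.077) and *Arg1* (0.19). Each rests on the cells that were left out. Limits are the unknown genotype and gate of each well and the mixture of types and stages in the other cells. Further limits are the small number of cells per plate and the 8 cells at E8.5.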
